A study of Mus musculus with 12 samples.

Results

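Levels of 10 early genes were followed in mouse brain: 4 members of the Egr family of transcription factors (Egr1, Egr2, Egr3 and Egr4), the 3 Nr4a nuclear receptors (Nr4a1, Nr4a2 and Nr4a3), the neuronal transcription factor Npas4, the synaptic gene Arc, and Ier2. They were picked by name, with earlier results of these data known, and are 10 of the 31208 genes in the count table. Long-read RNA sequencing had been done on brain tissue of 12 C57BL/6 mice, 8 weeks old, with 4 mice in each of 3 groups. Sham mice were not made ischemic, and the sources do not say whether they received an injection. In the other two groups the left middle cerebral artery was occluded for 6 h (ischemia), after an injection into the cerebral ventricle on the day before. That injection held vehicle (saline) in the vehicle group and lactate in the lactate group (D-lactate by the study's methods, while the labels say lactate alone), so that both ischemic groups share the surgery, the occlusion and the injection. The brain region taken is not given either. The comparisons ask how early gene RNA differed between ischemic and sham brain, and whether lactate given beforehand altered it.

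Genes of this kind are switched on within minutes of a stimulus, without new protein synthesis, when calcium and kinase signals reach the transcription factors CREB and SRF at their promoters. In the brain they are used as marks of recent neuronal activity, and their short-lived RNA means that a level reflects what the tissue experienced shortly before sampling. Focal ischemia, with its waves of depolarization, is a classical setting in which they are induced.

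Promoters were read for the members whose RefSeq entry was at hand, since the response to activity is known to run through them. A window from 250 bases before to 50 bases after the start was found for 6 of the 10 members, namely Egr2 with 5 overlapping or neighbouring windows and Egr4, Nr4a1, Nr4a2, Nr4a3 and Npas4 with 1 each (GRCm38.p6), and not for Egr1, Egr3, Arc and Ier2. The CREB half-site TGACG, read on both strands, lay in at least 1 window of 6 of these 6 genes, against 23.0% of all 27025 genes with such a window. The SRF site known as the CArG box was found in 1 of them, Egr2, against 1.81% of all genes. Neither the full CREB site TGACGTCA (2.03% of all genes), nor the Egr site GCGTGGGCG (0.707%), nor the Nr4a site AAAGGTCA (1.7%) was in the members' windows. TGACG is also contained in TGACGTCA, and such matches of letters describe the windows and show no binding. The windows of Npas4, Nr4a1, Egr2 and Egr4, which varied most between mice among these 6 genes, are printed below 5′ to 3′ on the gene's strand, and the capitals mark TGACG or its reverse complement CGTCA and, in Egr2, the CArG box. Of the 5 Egr2 windows 2 held no TGACG and 1 held no CArG box, and the one printed was chosen among those that hold both.
Npas4, chr19:4989922-4990221, minus strand: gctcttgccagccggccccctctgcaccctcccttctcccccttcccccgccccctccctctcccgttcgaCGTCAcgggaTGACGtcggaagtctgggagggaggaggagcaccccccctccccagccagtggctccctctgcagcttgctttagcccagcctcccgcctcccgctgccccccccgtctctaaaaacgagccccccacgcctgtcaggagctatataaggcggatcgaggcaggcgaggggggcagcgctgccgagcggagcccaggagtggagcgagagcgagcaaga
Nr4a1, chr15:101266596-101266895, plus strand: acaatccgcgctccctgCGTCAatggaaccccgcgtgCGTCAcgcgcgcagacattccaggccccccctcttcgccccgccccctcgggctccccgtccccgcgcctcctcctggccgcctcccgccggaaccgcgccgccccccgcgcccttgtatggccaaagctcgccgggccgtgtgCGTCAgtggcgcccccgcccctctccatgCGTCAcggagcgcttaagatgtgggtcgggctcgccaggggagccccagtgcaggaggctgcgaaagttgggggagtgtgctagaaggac
Egr2, chr10:67537620-67537919, plus strand: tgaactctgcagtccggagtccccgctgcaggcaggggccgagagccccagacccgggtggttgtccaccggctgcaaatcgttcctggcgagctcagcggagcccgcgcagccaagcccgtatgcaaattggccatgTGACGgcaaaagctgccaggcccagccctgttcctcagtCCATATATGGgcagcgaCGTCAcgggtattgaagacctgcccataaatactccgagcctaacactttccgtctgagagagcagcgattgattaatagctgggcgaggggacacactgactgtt
Egr4, chr6:85513540-85513839, minus strand: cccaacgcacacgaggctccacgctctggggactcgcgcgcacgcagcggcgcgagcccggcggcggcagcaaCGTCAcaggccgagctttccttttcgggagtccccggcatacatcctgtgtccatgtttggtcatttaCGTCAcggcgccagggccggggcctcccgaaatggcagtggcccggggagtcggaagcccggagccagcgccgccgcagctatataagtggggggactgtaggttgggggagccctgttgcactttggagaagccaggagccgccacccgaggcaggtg
The Nr4a1 window held 4 half-sites and the other three held 2 each. The windows of Nr4a2 and Nr4a3, not printed, held 4 each.

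Depth was similar between the groups, with 6815920 to 10677224 counts per mouse, so that 3 counts, taken as the floor of detection, correspond to 0.281 to 0.440 CPM (each count scaled by its mouse's total, the unit of all levels below). Floors cover counting error only, because the amplified reads carried no molecular identifiers. Vehicle mouse 1 stood apart from the others on the second principal component of all genes (-69.2, against -9.51 to 19.0 in the other 11 mice). Vehicle mouse 2 had a summed level of 6 choroid plexus markers of 2172 CPM, against 89.0 to 152 CPM elsewhere. Lactate mouse 2, on which counts of members below depend, had the highest value on the first principal component (31.5% of the variance), 63.7 against 15.3 to 28.7 in the other lactate mice and at most 32.0 in any other mouse. All 3 were kept. With vehicle mice 1 and 2 left out together, no count of members called at the adjusted limit below changed, while those at the unadjusted limit went from 4 to 6 higher in vehicle against sham (7.68% of all genes) and from 5 to 7 lower in lactate against vehicle (2.45%).

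Mice of the same ischemic group differed widely in these genes, with the same mice high for nearly all of the 10 genes. Relative to the 4 sham mice, vehicle mouse 2 lay above the whole sham range for 8 of the 10 genes and vehicle mouse 3 for 9, whereas vehicle mice 1 and 4 lay below it for 6 genes each. Lactate mice 1, 3 and 4 were below the sham range for 7 genes each. Lactate mouse 2 was the exception in its group, with 3 genes above the sham range (Egr3, Egr4 and Arc), 1 below it (Egr1) and 6 within it. The summed level of the 10 genes was 249, 267, 316 and 383 CPM in sham mice 1 to 4, then 152, 633, 1550 and 150 CPM in the vehicle mice, and 109, 410, 112 and 104 CPM in the lactate mice. Within the vehicle group mice 2 and 3 took the 2 highest places for 10 of 10 genes, and within the lactate group mouse 2 was highest for 10 of 10. The genes share each mouse's library and are not independent replicates of that order. Over all genes, neither the share outside the sham range in each mouse nor the share in which each mouse was highest was counted. These counts therefore have no background beside them. In bulk tissue, fewer cells of a type and less RNA per cell cannot be told apart.

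**Figure D1:**
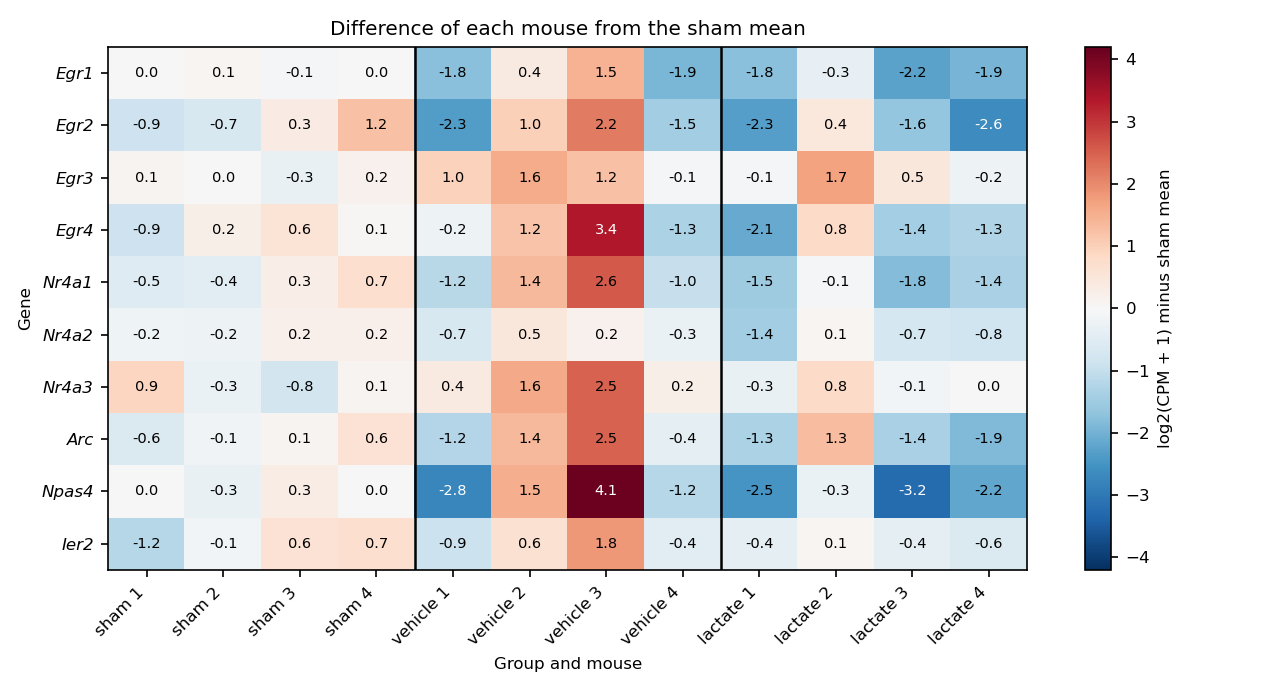
Heat map of each gene (rows) in each of the 12 mice (columns), as log2(CPM + 1) minus the mean of the 4 sham mice. Vehicle mice 2 and 3 are high in nearly every row, while vehicle mice 1 and 4 and lactate mice 1, 3 and 4 are mostly low.

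Egr1, a zinc-finger transcription factor that binds GC-rich promoters and is expressed in unstimulated cortex (ENSMUSG00000038418, chr18:34859823-34864984, plus strand), was the steadiest of the 10 in sham mice. Its levels there were 97.7, 102, 91.8 and 96.2 CPM (97.0 ± 4.34, SD, n = 4). Vehicle mice had 27.7, 127, 268 and 24.9 CPM, 2 above and 2 below every sham mouse. Lactate mice had 27.7, 76.5, 19.8 and 24.3 CPM, and all 4 were below every sham mouse. In the lactate group Egr1 fell by 1.35 on the log2 scale against sham (SE 0.33, edgeR adjusted p = 0.0166). The call held in 17 of 19 alternatives, with adjusted p between 1.52e-06 and 0.181. It was lost when all 12 mice were fitted together (0.181) and without lactate mouse 1 (0.0567), and the difference was -1.98 without lactate mouse 2. Against sham the vehicle group differed by 0.23 (SE 0.56, adjusted p = 0.901), with mice on both sides. Lactate against vehicle gave -1.60 (SE 0.68, adjusted p = 0.544).

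Egr2, a relative of Egr1 also known for driving myelination by Schwann cells (ENSMUSG00000037868, chr10:67535475-67542188, plus strand), was low in many mice. Sham mice had 3.56, 4.24, 9.64 and 18.6 CPM, vehicle mice 0.656, 15.8, 36.8 and 2.05 CPM, and lactate mice 0.676, 10.4, 1.71 and 0.348 CPM. The lactate values rest on 5, 87, 13 and 3 counts, the last at the floor. Lactate mice 1, 3 and 4 were below all sham mice and mouse 2 was inside their range, and the log2 difference from sham was -1.40 (SE 0.75, edgeR adjusted p = 0.255). Without lactate mouse 2 that difference was -3.27 (adjusted p = 0.00977), and it also passed with voom (-2.64, adjusted p = 0.0393). For Egr4, a family member also induced in neurons (ENSMUSG00000071341, chr6:85511121-85513589, minus strand), sham mice had 1.98, 5.46, 7.20 and 4.69 CPM, vehicle mice 3.75, 11.7, 54.9 and 1.17 CPM, and lactate mice 0.270, 8.503, 1.05 and 1.28 CPM. Lactate mouse 1 had 2 counts of Egr4, under the floor of 3. The vehicle difference from sham was 1.90 (SE 0.83, adjusted p = 0.331) and the lactate difference from sham -0.75 (SE 0.67, adjusted p = 0.517), so that neither passed. The first was 0.23 without vehicle mouse 3 (adjusted p = 0.931) and the second -2.40 without lactate mouse 2 (adjusted p = 0.0113).

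Egr3, which acts downstream of activity and controls later synaptic genes (ENSMUSG00000033730, chr14:70077203-70082614, plus strand), was not low in the lactate group. Sham mice had 29.5, 26.8, 21.5 and 31.0 CPM, vehicle mice 54.1, 81.2, 64.5 and 25.2 CPM, and lactate mice 25.4, 89.5, 37.8 and 23.1 CPM. Vehicle mice 1, 2 and 3 were above every sham mouse and mouse 4 was within their range. No lactate mouse was below the sham range, and mice 2 and 3 were above it. The vehicle difference from sham was 1.09 (SE 0.28, unadjusted p = 0.00207, edgeR adjusted p = 0.0943), which missed the limit. It passed with DESeq2 (adjusted p = 0.0124), with edgeR's exact test (0.00708) and without vehicle mouse 4 (0.00385), and over all alternatives adjusted p ranged from 0.00385 to 0.264. Lactate against sham gave 0.72 (SE 0.35, adjusted p = 0.197), and 0.12 without lactate mouse 2 (adjusted p = 0.766).

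**Figure D2:**
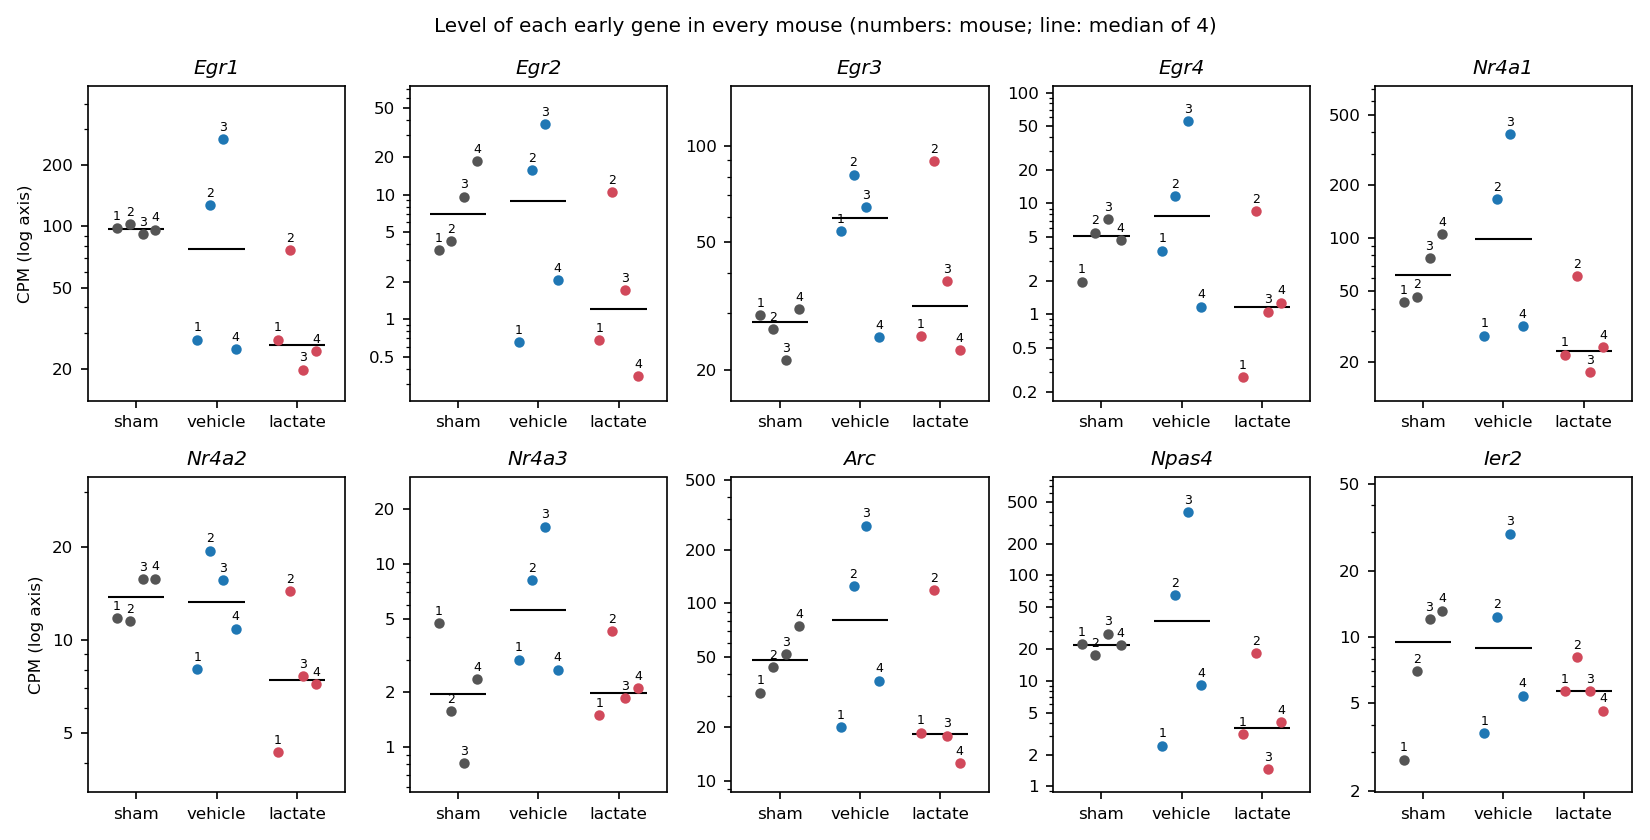
Level of each of the 10 genes (CPM, log axis) in every mouse of the sham, vehicle and lactate groups, with the mouse number above each point and a line at the group's median (n = 4). Egr1 is the only panel in which all 4 lactate points lie below all 4 sham points, and lactate mouse 2 is the highest lactate point in every panel.

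The Nr4a receptors are orphan nuclear receptors whose activity is set mainly by how much of them is made. Nr4a1 (Nur77, ENSMUSG00000023034, chr15:101254269-101274795, plus strand) had 43.4, 46.8, 77.4 and 105 CPM in sham mice, 28.1, 166, 389.5 and 31.8 CPM in vehicle mice and 21.9, 61.3, 17.5 and 24.1 CPM in lactate mice. The vehicle mice again fell on both sides of the sham range, 2 above it and 2 below it, and 3 of 4 lactate mice fell below it. Lactate against sham gave -1.10 (SE 0.37, edgeR adjusted p = 0.0694), just outside the limit. In 5 alternatives it passed, among them voom (0.0120) and the fit without lactate mouse 2 (0.00351), and over all alternatives adjusted p ranged from 0.00351 to 0.351. Lactate against vehicle gave -2.31 (SE 0.74, unadjusted p = 0.0088, adjusted p = 0.496).

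Nr4a2 (Nurr1, ENSMUSG00000026826, chr2:57106830-57124003, minus strand), needed for midbrain dopamine neurons, was lower in most lactate mice. Its levels were 11.7, 11.5, 15.8 and 15.8 CPM in sham mice, 8.05, 19.4, 15.6 and 10.9 CPM in vehicle mice and 4.33, 14.4, 7.65 and 7.19 CPM in lactate mice. The vehicle difference from sham was 0.01 (SE 0.26, edgeR adjusted p = 0.993), whose sign turned in several alternatives. Lactate mice 1, 3 and 4 were under the sham range, and the lactate difference was -0.67 (SE 0.29, adjusted p = 0.151), which passed with voom (0.0339) and without lactate mouse 2 (-1.05, adjusted p = 0.0140). Nr4a3 (Nor1, ENSMUSG00000028341, chr4:48045153-48086447, plus strand) stood at 4.75, 1.56, 0.815 and 2.34 CPM in sham mice, 3.00, 8.16, 16.1 and 2.64 CPM in vehicle mice and 1.49, 4.31, 1.85 and 2.09 CPM in lactate mice. For Nr4a3 all 4 lactate mice were within the sham range, and the difference of 0.09 (SE 0.47, adjusted p = 0.927) turned negative without sham mouse 2, sham mouse 3 or lactate mouse 2. The vehicle difference from sham was 1.69 (SE 0.59, adjusted p = 0.228), and 1.00 without vehicle mouse 3 (adjusted p = 0.527).

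Npas4, a transcription factor made almost only in neurons and induced by calcium entry (ENSMUSG00000045903, chr19:4984355-4990316, minus strand), had the widest spread. Sham mice had 22.2, 17.6, 28.0 and 21.95 CPM, vehicle mice 2.44, 65.3, 400.1 and 9.10 CPM, and lactate mice 3.11, 18.2, 1.45 and 4.06 CPM. Vehicle mouse 3 was thus far above every other mouse, while vehicle mouse 1 was below all but lactate mouse 3. In the lactate group Npas4 fell by 1.69 on the log2 scale against sham (SE 0.51, edgeR adjusted p = 0.0465), with mice 1, 3 and 4 below the sham range and mouse 2 within it. Without lactate mouse 2 the difference was -2.90. This call held in 8 of 19 alternatives with adjusted p from 3.44e-05 to 0.382. It was lost with DESeq2 (0.125), in all 12 mice together (0.382) and without any 1 mouse other than lactate mouse 2, and the exact two-sided permutation p of log2(CPM + 1) was 0.0571. Vehicle against sham gave 2.44 (SE 1.02, adjusted p = 0.313), and lactate against vehicle -4.14 (SE 1.28, unadjusted p = 0.00732, adjusted p = 0.490). Without vehicle mouse 3 these were 0.23 (adjusted p = 0.944) and -1.94 (adjusted p = 0.569), and over all mice left out in turn the second ran from -5.35 to -1.94.

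Arc, whose RNA travels into dendrites and whose protein helps remove AMPA receptors from synapses (ENSMUSG00000022602, chr15:74669083-74672570, minus strand), was uneven within the lactate group, as Egr4 was. Sham mice had 31.4, 43.7, 51.9 and 74.2 CPM, vehicle mice 20.04, 125, 275 and 36.7 CPM, and lactate mice 18.7, 119, 17.9 and 12.5 CPM. Lactate mouse 2 was above every sham mouse, and the other three were below every sham mouse. The lactate difference from sham was -0.23 (SE 0.57, edgeR adjusted p = 0.840), and without lactate mouse 2 it was -1.59 (adjusted p = 0.00299). Ier2, a small nuclear protein of the immediate early class (ENSMUSG00000053560, chr8:84661331-84662852, minus strand), had 2.77, 7.02, 12.1 and 13.2 CPM in sham mice, 3.65, 12.4, 29.6 and 5.43 CPM in vehicle mice and 5.68, 8.14, 5.67 and 4.64 CPM in lactate mice. All 4 lactate values of Ier2 were inside the sham range, and its differences from sham were 0.57 (SE 0.58, adjusted p = 0.732) with vehicle and -0.51 (SE 0.37, adjusted p = 0.416) with lactate.

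Counted together, none of the 10 genes passed in vehicle against sham with edgeR's quasi-likelihood test, where a call needed a fold change of 1.5 or more and an adjusted p under 0.05. Across all 17019 genes tested, 1.29% were called higher and 0.182% lower. At an unadjusted p under 0.05 with the same fold, 4 members were higher (Egr3, Egr4, Nr4a3 and Npas4) and 0 lower, where 6.5% of all genes were higher. DESeq2 and edgeR's exact test each called 1 member higher, Egr3, and limma voom called 0, while they called 2.26%, 2.54% and 1.93% of all genes higher. All 10 fitted differences were above 0, with a median of 1.14 against 0.00307 over all genes, but those of Egr1, Egr2, Nr4a2 and Ier2 turned negative under at least 1 alternative. Those of Arc (1.21, SE 0.60, adjusted p = 0.404) and Nr4a1 (1.199, SE 0.66, adjusted p = 0.459) were 0.31 and 0.18 without vehicle mouse 3, and that of Egr2 was 0.64 (SE 0.85, adjusted p = 0.800) in all mice.

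In lactate against sham 2 members fell, Egr1 and Npas4, and 0 rose, while 2.52% of the 17262 genes tested fell and 7.88% rose. At the unadjusted limit 4 members were lower (Egr1, Nr4a1, Nr4a2 and Npas4), against 5.65% of all genes. Egr1 alone had no overlap between the groups with lactate lower, 1 of 10, which is near the 8.74% of all genes that did so. The median difference of the members was -0.71, against -0.03 over all genes, and 8 of 10 were below 0. The count rested on single mice: it was 0 without lactate mouse 1, and it was 7 without lactate mouse 2 (Egr1, Egr2, Egr4, Nr4a1, Nr4a2, Arc and Npas4), where 1.66% and 1.76% of all genes tested were called lower. With any other mouse left out it was 1 (Egr1), where 1.33% to 2.44% of all genes tested were called lower.

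In lactate against vehicle the edgeR quasi-likelihood test called none of the 10 members, against 0.00574% of the 17419 genes tested that were called lower. DESeq2, edgeR's exact test and voom also called 0, and called 0.0517%, 0.0402% and 0.00574% of all genes lower. At the unadjusted limit 5 members were lower (Egr1, Egr4, Nr4a1, Nr4a3 and Npas4), against 2.47% of all genes. All 10 fitted differences were below 0, with a median of -1.61 against -0.03 over all genes. Without vehicle mouse 3 they were smaller for Egr1 (-0.71), Egr2 (-0.90), Egr4 (-1.001), Nr4a1 (-1.29), Nr4a3 (-0.93), Arc (-0.55) and Ier2 (-0.26), and without lactate mouse 2 larger for Egr1 (-2.23), Egr2 (-3.92), Egr3 (-0.98), Egr4 (-4.32) and Arc (-2.81). With all mice the largest was that of Npas4 and the smallest that of Egr3 at -0.38 (SE 0.43, adjusted p = 0.824). Both comparisons with sham use the same 4 sham mice, and this one uses the same ischemic mice again, so the 3 sets of differences are not independent.

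**Figure D3:**
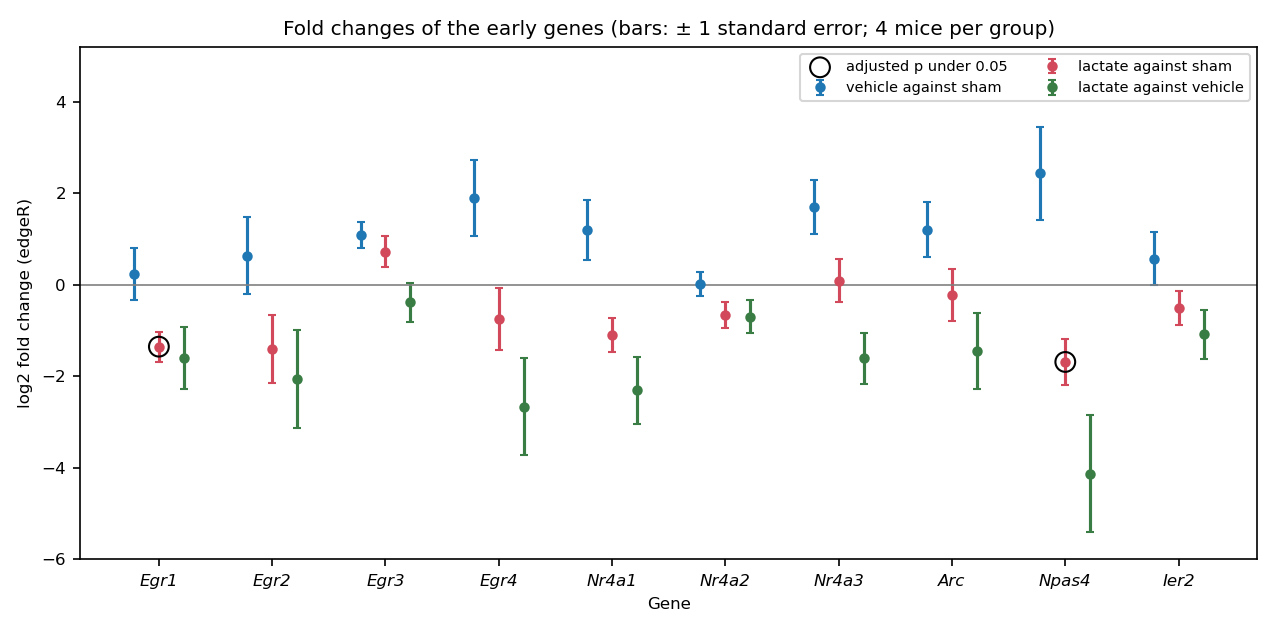
Fitted log2 fold change of each gene in the 3 comparisons (edgeR, n = 4 mice per group, bars are 1 SE). Only Egr1 and Npas4 in lactate against sham passed the adjusted limit, and all 10 points for lactate against vehicle lie below 0 without passing it.

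Other rapid early genes, a list of 25 outside the 10 that includes Fos, Jun, Atf3 and Zfp36, was read in the same fits. In vehicle against sham 9 of 22 tested rose and 0 fell by edgeR's quasi-likelihood test, beside 1.29% of all genes called higher, and the list's median log2 difference was 1.73. At the unadjusted limit 18 were higher, beside 6.5% of all genes. DESeq2, the exact test and voom called 12, 15 and 11 higher, beside 2.26%, 2.54% and 1.93% of all genes, and 0 lower. Of the 9 called by edgeR's quasi-likelihood test, those with the largest change were the stress-induced factor Atf3 (5.36, SE 1.00, edgeR adjusted p = 0.0182), the AP-1 subunit Fosb (3.60, SE 0.78, 0.0402) and the small Maf factor Maff (2.75, SE 0.59, 0.0366). Atf3 was near the floor in sham mice (median 0.33 CPM, range 0 to 1.22 CPM), so the size of its differences from sham rests on a baseline near 0. Fos (1.87, SE 0.76, 0.301) and Jun (2.00, SE 0.54, 0.111), named here after their values were seen, did not pass. In lactate against sham 5 of 21 rose and 0 fell by the same test, beside 7.88% of all genes called higher, with a median of 0.55. At the unadjusted limit 9 were higher, beside 11.9% of all genes, and 2 lower (Btg2 at -1.05 and Dusp1 at -0.73), beside 5.65%. Fos (-0.96, SE 0.55, edgeR adjusted p = 0.292) and Junb (-0.72, SE 0.34, 0.189), also named after their values were seen, were below 0 without passing. Of the 21 tested, 15 were above 0. DESeq2, the exact test and voom called 1, 1 and 2 of the list lower, beside 2.66%, 3.3% and 2.72% of all genes, and 3, 7 and 3 higher, beside 7.87%, 9.28% and 7.58%. Atf3 (3.84, SE 0.99, 0.0235), Zfp36, which destabilizes AU-rich RNAs (2.12, SE 0.29, 0.000576), and Maff (2.10, SE 0.56, 0.0274) led. With any 1 mouse left out Zfp36 still passed with lactate, while adjusted p reached 0.0781 for Maff there, and 0.08055, 0.148 and 0.138 for Atf3, Fosb and Maff with vehicle. Atf3 was kept by the filter in only 4 of the 8 such fits with lactate, not in the one without lactate mouse 2, and its adjusted p in the 4 reached 0.0671. No gene of that list passed in lactate against vehicle (edgeR quasi-likelihood test, 0 of 23, with 12 at an unadjusted p under 0.05, beside 8.84% of all genes). DESeq2, the exact test and voom called 1, 2 and 0 of the list lower there, beside 0.0517%, 0.0402% and 0.00574% of all genes. Whether the list and the 10 genes differ was not tested.

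Later activity genes, a list of 18 effectors such as growth factors and synaptic proteins, had 5 of 18 members that rose and 0 that fell in each comparison with sham by edgeR's quasi-likelihood test. All genes were called higher in 1.29% of cases with vehicle and 7.88% with lactate. DESeq2, the exact test and voom called 8, 9 and 6 of the list higher with vehicle, beside 2.26%, 2.54% and 1.93% of all genes. With lactate they called 4, 6 and 4 higher, beside 7.87%, 9.28% and 7.58%, and in both comparisons 0 lower. At the unadjusted limit 11 of the 18 were higher with vehicle and 8 with lactate, beside 6.5% and 11.9% of all genes, and 0 were lower, with median differences of 1.12 with vehicle and 0.72 with lactate. The prostaglandin synthase Ptgs2 (3.19, SE 0.72, edgeR adjusted p = 0.0491), the synaptic pentraxin Nptx2 (3.18, SE 0.50, 0.00606) and Tiparp, an ADP-ribosyltransferase (2.71, SE 0.59, 0.0429), led with vehicle. With lactate Nptx2 (2.73, SE 0.59, 0.0102), the activin subunit Inhba (1.95, SE 0.58, 0.0431) and Ptgs2 (1.94, SE 0.42, 0.0105) led. Without lactate mouse 2 these were 1.54, 0.72 and 1.27, and Inhba no longer passed (adjusted p = 0.0932). With any 1 mouse left out, Nptx2 passed in both comparisons with sham and Ptgs2 in lactate against sham. With vehicle, adjusted p reached 0.167 for Ptgs2 and 0.155 for Tiparp. As for the 10 genes, lactate mouse 2 was highest in its group for 17 of 18 late genes and 21 of 25 rapid ones. It was highest for 7 of 16 upstream factors and 2 of 7 partners, the lists given next. How often it was highest over all genes was not counted. Of the factors upstream of the promoters (CREB, SRF and their partners) the edgeR quasi-likelihood test called 0 of 15 tested in each comparison. In vehicle against sham, lactate against sham and lactate against vehicle, 1, 4 and 0 of them had an unadjusted p under 0.05, beside 13.8%, 27.1% and 8.84% of all genes, so that the 4 of 15 is near the share of all genes. The other tools called 0 of them apart from 1 higher with DESeq2 and 1 higher with the exact test in lactate against sham. These tools called 7.87% and 9.28% of all genes higher there. Of 7 partners and corepressors of the members, edgeR's quasi-likelihood test called 0 in each comparison. At an unadjusted p under 0.05 there were 1, 1 and 0, beside the same 13.8%, 27.1% and 8.84% of all genes. DESeq2, the exact test and voom each called 1 of the 7 higher in lactate against sham, beside 7.87%, 9.28% and 7.58% of all genes. They called 0 in the other comparisons.

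**Figure D4:**
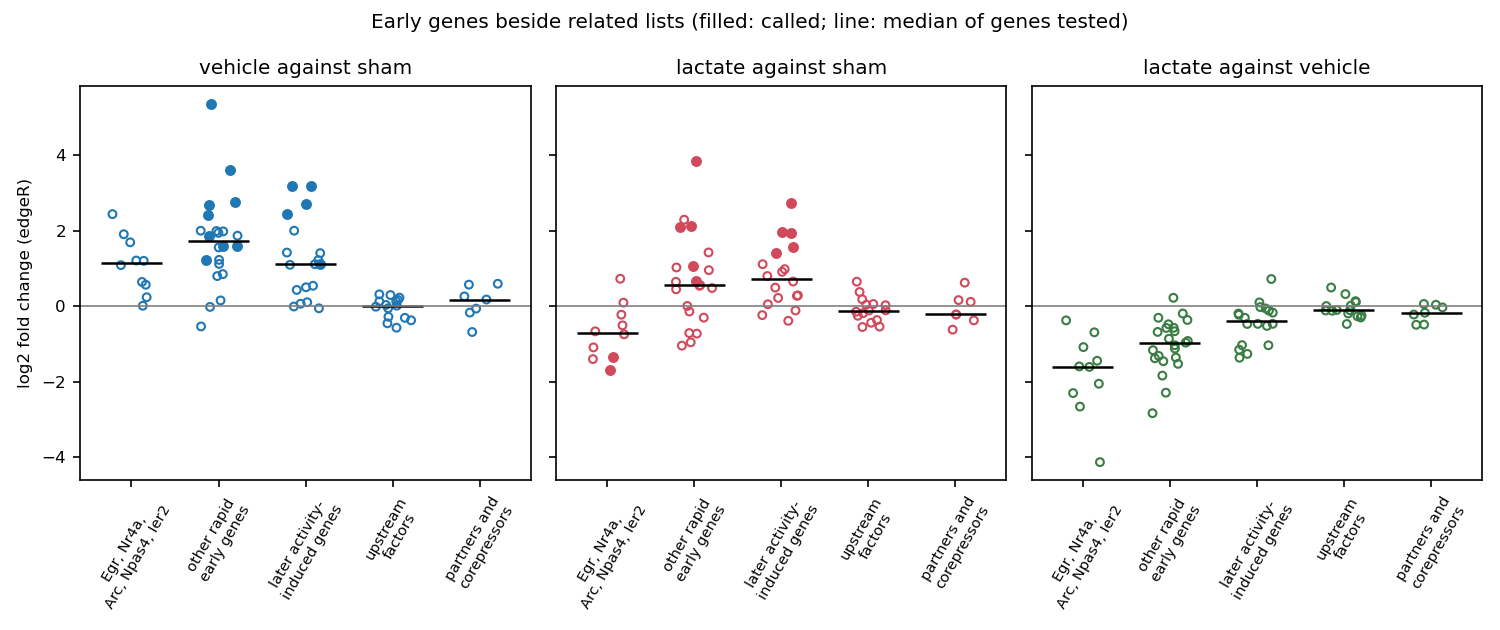
Log2 fold changes of the 10 genes and of the listed rapid early, late activity, upstream and partner genes in each comparison (1 point per gene, line at the median). The rapid early and late lists have medians above 0 against sham in both ischemic groups, at 1.73 and 1.12 with vehicle and 0.55 and 0.72 with lactate. The 10 members have medians of 1.14 with vehicle and -0.71 with lactate. In lactate against sham 15 of the 21 rapid early genes tested are above 0, and among those below it are Fos, Junb, Dusp1 and Btg2.

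The genes most like each member across the 12 mice were for many members other early genes. Likeness was the root mean square difference of log2(CPM + 1) centred on each gene's mean, a description over 12 mice that share their group structure and libraries. Nr4a1 was nearest to Junb (0.338), Dusp1 (0.425) and Arc (0.455), and Egr1 to Nr4a1 (0.510), Dusp6 (0.560) and Junb (0.634). Npas4 was nearest to Fos (0.654), which had 25.1, 29.2, 48.3 and 51.2 CPM in sham mice, 10.1, 138, 371 and 31.5 CPM in vehicle mice and 4.87, 53.3, 10.7 and 8.11 CPM in lactate mice. Egr3 and Nr4a2 stood aside, with Sertad1, Ccdc184 and Ankrd33b (0.299, 0.304 and 0.327) nearest to Egr3 and Rasa2, Nmd3 and Armcx3 (0.193, 0.252 and 0.286) nearest to Nr4a2.

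Cell type markers were read beside these results. The tissue was brain by its markers, with 8 neuronal markers summing to 4517 to 4835 CPM in sham mice, 3734 to 5596 CPM in vehicle mice and 3781 to 4459 CPM in lactate mice. In each comparison the edgeR quasi-likelihood test called 0 of the 8, with 0 at an unadjusted p under 0.05 and 0 by DESeq2, the exact test or voom. Vehicle mouse 1, where 6 members were below the sham range, had the highest neuronal sum, and vehicle mouse 3, where 9 members were above it, the lowest. The 7 markers of striatal projection neurons summed to 383 to 616 CPM in sham mice, 590, 250, 726 and 264 CPM in vehicle mice 1 to 4 and 682 to 805 CPM in lactate mice. The 5 neutrophil markers summed to 0.446 to 2.77 CPM in sham mice, 11.99, 52.1, 73.2 and 8.80 CPM in the vehicle mice and 23.3, 22.2, 40.2 and 16.3 CPM in the lactate mice. In the vehicle group they were thus highest in mice 2 and 3, where the early genes were highest, and in the lactate group highest in mouse 3, where they were low. Markers of other cells that passed in vehicle against sham were Gfap of reactive astrocytes (log2 difference 1.64) and Cx3cr1 and P2ry12 of microglia (-1.21 and -1.01), and the neutrophil genes S100a8 (4.40) and S100a9 (5.34). In lactate against sham the neutrophil genes S100a8 (3.83), S100a9 (4.78) and Retnlg (4.46), Gfap (2.47), the choroid plexus gene Ttr (3.25), the endothelial gene Ly6c1 (0.86) and the striatal gene Ppp1r1b (0.67) were higher. P2ry12 (-1.10), the endothelial transporter Slco1a4 (-1.70), the myelin gene Mog (-0.60) and the globin gene Hbb-bt (-0.61) were lower. In sham mice the medians of S100a9 (0.12 CPM) and Retnlg (0 CPM) were under the floor, so the sizes of their differences rest on a baseline near 0. Markers of a list did not always go the same way, and 3 of the 5 microglial markers had differences above 0 with lactate (Tmem119 0.49, Aif1 0.29 and Csf1r 0.03), none of which passed. The other choroid plexus gene tested, Enpp2, was at -0.44 (edgeR adjusted p = 0.0485, under the fold limit), and the choroid plexus sum was 89.0 to 147 CPM in lactate mice against 140 to 152 CPM in sham mice. The part of cell composition in the results was not tested.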

How the data were processed

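Counts and CPM of 12 mice, 4 per group, were taken from the table deposited for the series, with groups and mouse numbers from the sample labels. The authors sequenced PCR-amplified cDNA (14 cycles) on a PromethION, removed reads under quality 7 or 500 bp and ribosomal RNA, and mapped full-length reads with minimap2, refining transcripts with pinfish and gffcompare. The deposited count values are unnormalized, the tool that counted genes is not given in the sources used here, and the submitters' notes list GRCm38 and DESeq 1.10.1. The deposited CPM values are each count divided by its mouse's total. Columns of the authors' own comparisons (P values and log2 fold changes named for edgeR) were not used. Left out were 4 lines with no gene, and 0 columns of per-sample values.

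Groups were compared in pairs with edgeR 4.0.16 in R 4.3.3 (quasi-likelihood test, TMM, genes kept at 1 CPM or more in 4 or more of 8 mice) and Benjamini-Hochberg adjustment over all genes tested. Calls needed a fold change of 1.5 or more and an adjusted p under 0.05. Standard errors are the log2 fold change divided by the square root of F. Scripts were tested on simulated counts. Alternatives were DESeq2 1.42.0, limma 3.58.1 (voom with quality weights), edgeR's exact test, other scalings and filters, other limits, all 12 mice in 1 fit, a replicate block, each mouse left out and an exact permutation test. Leaving out vehicle mice 1 and 2 together was added after seeing the data. The members and gene lists were chosen with earlier results of these data known. Named from each list were the 3 called genes with the largest change. The genes most like each member were sought among those with a mean of at least 5 CPM. The nearest 3 are printed for Egr1, Egr3, Nr4a1 and Nr4a2, and the nearest alone for Npas4. Positions are from GENCODE release M21 on GRCm38, in which no annotated gene overlaps a member, and promoters from RefSeq. Nothing in the sources pairs mice across groups.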

Additional observations from a re-analysis of the deposited data

Results flagged for a closer look

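Within a group of 4 mice, a value was singled out when its gap to the nearest mouse took a larger share of the group's range than Dixon's 95% critical value allows. Of 33 such groups tested 8 were singled out, and chance alone gives about 1 in 20 for normally distributed values, which CPM values are not. Among all 17262 genes tested in lactate against sham, lactate mouse 2 was singled out as high in 2.17%, and among the 17019 tested in vehicle against sham, vehicle mouse 3 in 0.717%. Of the 33 groups, 3 are sums of the same members, and the genes share each library, so these are not 8 separate events.

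Lactate mouse 2 was the high value in 7 of them. It had 76.5 CPM of Egr1, 10.4 CPM of Egr2, 8.503 CPM of Egr4, 61.3 CPM of Nr4a1, 119 CPM of Arc and 18.2 CPM of Npas4, each far above the other 3 lactate mice. The summed level of the 10 members in this mouse was 410.3 CPM, against 104 to 112 CPM in the other lactate mice. Its neuronal marker sum of 4315 CPM, striatal sum of 686 CPM and choroid plexus sum of 89.0 CPM were not higher than in every other lactate mouse, and its neutrophil marker sum was 22.2 CPM. Over all genes this mouse did stand apart, with the highest of 12 values on the first principal component (63.7, the next being 32.0 in vehicle mouse 3). Vehicle mouse 3 was the other, with 400.1 CPM of Npas4 against 2.44 to 65.3 CPM in the other vehicle mice. What set these mice apart was not tested.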

How the results depend on the processing

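The 10 genes gave 590 values under the alternatives, of which 541 kept their direction and their side of the limit, 14 newly passed, 13 no longer passed and 22 changed sign. The number of members called in vehicle against sham was 0, and 4 at the unadjusted limit, 1 with DESeq2, 1 with the exact test and 0 to 1 with a mouse left out (1 without vehicle mouse 4, where 1.11% of all genes were called higher). In lactate against sham it was 2, and 4 at the unadjusted limit, 1 with DESeq2 (2.66% of all genes called lower), 3 with the exact test (3.3%), 5 with voom (2.72%), 3 with no filter (2.1%), 0 with all 12 mice in 1 fit (1.58%), 1 with Ensembl genes only (1.82%) and 0 to 7 with a mouse left out. In lactate against vehicle it was 0, and 5 at the unadjusted limit. Signs changed for differences that had not passed. In vehicle against sham Egr1 went to -0.46 and Egr2 to -0.16 as mean differences of log2(CPM + 1) in the permutation test, and Nr4a2 went to -0.075 there, -0.026 with library totals only, -0.00022 with no filter and -0.01 without vehicle mice 1 and 2. With 1 mouse, or vehicle mice 1 and 2, left out, the differences from sham ranged with vehicle from -0.65 to 0.63 for Egr1, -0.52 to 1.29 for Egr2, -0.22 to 0.20 for Nr4a2 and -0.26 to 1.04 for Ier2, and with lactate from -0.33 to 0.64 for Nr4a3 and -1.59 to 0.087 for Arc. The cause was not tested.

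With the mouse number as a replicate block, 3 members were called in lactate against sham (Nr4a1 joined, adjusted p = 0.0286, where 2.76% of all genes were called lower) and 0 in the other two comparisons, while Egr1 went to -0.43 and Nr4a2 to -0.042 in vehicle against sham. The mice are different animals and same-numbered mice deviated from their group means with correlations of only -0.148 to 0.158, so the number is not a pairing. Depth limits Egr2 and Egr4 in the lactate group, where single mice had 2 to 13 counts.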

Other observations

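Egr3 and Egr1 were set against each other within each library. The ratio of Egr3 to Egr1 CPM, chosen after the values were seen, was 0.302, 0.261, 0.234 and 0.322 in sham mice 1 to 4, then 1.95, 0.640, 0.240 and 1.01 in the vehicle mice and 0.917, 1.17, 1.91 and 0.948 in the lactate mice. All 4 lactate mice were above all 4 sham mice, by 4.25-fold in the geometric mean, and vehicle mouse 3 was within the sham range. No test is given, because the pair of genes was picked for this difference. The ratio does not depend on library scaling, and it describes a relative change of the 2 genes only. With mouse 2 high for Egr1 and Egr3 alike, its ratio of 1.17 lay inside the range of the other lactate mice.

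The growth factor Bdnf, a late gene of the activity response, showed the same mice at the top. Its levels were 49.7 to 62.7 CPM in sham mice, 85.2, 196, 225 and 62.8 CPM in the vehicle mice and 52.9, 251, 54.7 and 41.2 CPM in the lactate mice. Its vehicle difference from sham was 1.42 (SE 0.33, edgeR adjusted p = 0.0599), its lactate difference from sham 0.91 (SE 0.45, adjusted p = 0.220) and its lactate difference from vehicle -0.53 (SE 0.56, adjusted p = 0.813), and none passed.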
